A study of Mus musculus with 8 samples.

Results

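The IL-15 and IL-2 receptor axis was followed through 7 genes of the 55487 in the count table: the cytokine genes Il15 and Il7, and the genes of 5 receptor chains, Il15ra, Il2ra, Il7r, Il2rb and Il2rg. They were chosen by name, and each was found once by its Ensembl identifier. RNA was sequenced from 8 subcutaneous Lewis lung carcinoma (LLC) tumors collected on day 12 after engraftment, each from 1 of 4 mice per group. LLC is a transplantable lung carcinoma line of the C57BL/6 background. One group carried wild-type LLC cells and the other LLC cells labelled Ago2 knock-out, here called knock-out tumors. All hosts were C57BL/6J mice, described in the study's methods as young adult females, with their own Ago2 intact and a working immune system. Ago2 was targeted only in the cancer cells, with a lentiviral CRISPR vector followed by puromycin selection and single-cell sorting to obtain clones, so genotype and clone cannot be told apart. No tumor received immune checkpoint treatment as far as the labels say.

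IL-15 is a cytokine that keeps natural killer (NK) cells and memory CD8+ T cells alive and dividing. It is unusual in that the producing cell, often a macrophage or dendritic cell, holds it on IL-15Rα (Il15ra) and presents it to a neighboring lymphocyte, which reads it with IL-2Rβ (Il2rb) and the common γ chain (Il2rg). IL-2 uses the same signalling pair together with IL-2Rα (Il2ra), which regulatory and activated T cells display, and IL-7 binds IL-7Rα (Il7r) with the common γ chain. These chains signal through JAK1, JAK3 and STAT5. Il15 is an interferon-responsive gene, and it belongs to the interferon signature that the study chose on these same tumors, so its direction here is not independent evidence.

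Ago2, the Argonaute protein that carries microRNAs to their target transcripts, was checked first. The Ago2 transcript measured 130, 195, 151.2 and 138 CPM (counts scaled to a common library total) in wild-type tumors 1 to 4 and 118, 354, 215 and 270 CPM in knock-out tumors 1 to 4. It was therefore not lower in the knock-out tumors (log2 fold change 0.64, SE 0.30, edgeR adjusted p = 0.205), and gene counts do not show the edit itself. The study examined Ago2 protein in the cell lines by Western blot, a measure that these RNA counts do not replace. Total counts ran from 7903288 in wild-type 4 to 268564145 in knock-out 4. A count of 0 allows up to 0.430 CPM in the first and up to 0.0105 CPM in the second (3 counts on the TMM-scaled total). Krt8 and Krt18, keratins of simple epithelia, were abundant at group means of 315 to 516 CPM, while the lung lineage factor Nkx2-1 had no count in any tumor. Wild-type 3 stood apart by its summed skeletal muscle markers (3167 CPM, against 36.0 to 425 CPM in the other tumors). Knock-out 1 stood apart by its T cell and NK cell markers, whose values are given beside the receptor chains.

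Because Ago2 acts through microRNAs, the annotated 3′ ends (GENCODE M21, mouse build GRCm38) of the 7 genes were searched for sites of 12 microRNA families, counting matches to bases 2 to 8 of the microRNA. The search found 17 sites. The most widespread was that of miR-15a-5p, found in 5 members, where 23.7% of the 13775 tested genes with an annotated 3′ end hold one. The microRNA and these sites are shown because they include the single site of Il15. Capitals mark the seed of the microRNA (bases 2 to 8) and the matching letters of the gene, which extend to 8 bases where an A follows.
miR-15a-5p: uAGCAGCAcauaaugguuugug
Il15, chr8:82331848-82331877 (- strand): gtacctccaccTGCTGCTcagaggcagcac
Il15ra, chr2:11733697-11733726 (+ strand): acttggcccttTGCTGCTttgcacctattg
Il2ra, chr2:11692384-11692413 (+ strand): tcagctagcagTGCTGCTttgggttttgga
Il7, chr3:7571592-7571621 (- strand): ttctactgggaTGCTGCTtaaattttaagc
Il7r, chr15:9506922-9506951 (- strand): catgattttccTGCTGCTAttatccattgg

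miR-155-5p, a microRNA of activated immune cells, matched 2 of the 7 genes, where 8.89% of tested genes hold a match. They are shown because Il15ra holds a pair of them.
miR-155-5p: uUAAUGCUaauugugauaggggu
Il15ra, chr2:11733957-11733986 (+ strand): tcagtacaaaaAGCATTAAaattatcaaca
Il15ra, chr2:11734165-11734194 (+ strand): tgagcccagctAGCATTAgacacatacctt
Il7r, chr15:9506552-9506581 (- strand): ttgggtgccttAGCATTAAaattctgttta

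The 3′ end of Il15 was the shortest of the 7 at 282 bases, against 474 bases in Il2rg, 1068 in Il15ra and 3846 in Il7, and the median over tested genes was 1129 bases. A longer end offers more places for a match. Il2rb and Il2rg held 1 match each, to miR-146a-5p and miR-26a-5p. No member held a match to miR-17-5p, miR-29a-3p, miR-200b-3p or miR-223-3p. A match is a run of letters, and none of these sites was tested for use. Ago2 was targeted only in the cancer cells, and host cells keep it. Bulk counts do not show which part of each transcript came from cancer cells.

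RefSeq promoter windows on GRCm38.p6, covering 250 bases before and 50 bases after the start, were matched for 4 of the genes: Il15ra with 2 starts, and Il2ra, Il2rg and Il7r with 1 each. They were searched on both strands for an interferon response core (GAAANNGAA), a STAT core (TTCNNNGAA) and an NF-kB core (GGANNTTCC), motifs that do not overlap one another in these windows. Both starts of Il15ra held the interferon response core, at position -149 on the minus strand and at position 30 on the plus strand relative to the start. Il7r held the STAT core at position -142. The windows of Il2ra and Il2rg held none of the 3. Of 32851 promoters, 8.56% held the interferon response core, 8.30% the STAT core and 4.26% the NF-kB core. The 3 windows with a match are shown with the match in capitals.
Il15ra, chr2:11705043-11705342 (+ strand): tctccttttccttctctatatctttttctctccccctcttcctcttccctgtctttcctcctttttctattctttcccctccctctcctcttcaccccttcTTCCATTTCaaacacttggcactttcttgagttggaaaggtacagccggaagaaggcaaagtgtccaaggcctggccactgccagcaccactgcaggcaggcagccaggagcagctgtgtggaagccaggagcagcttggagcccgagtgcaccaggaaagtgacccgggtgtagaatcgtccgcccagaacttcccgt
Il15ra, chr2:11705462-11705761 (+ strand): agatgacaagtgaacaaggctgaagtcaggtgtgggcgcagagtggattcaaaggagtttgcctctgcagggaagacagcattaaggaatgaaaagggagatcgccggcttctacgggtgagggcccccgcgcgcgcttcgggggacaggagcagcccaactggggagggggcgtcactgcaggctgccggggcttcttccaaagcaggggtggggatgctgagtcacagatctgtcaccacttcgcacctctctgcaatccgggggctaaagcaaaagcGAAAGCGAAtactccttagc
Il7r, chr15:9529827-9530126 (- strand): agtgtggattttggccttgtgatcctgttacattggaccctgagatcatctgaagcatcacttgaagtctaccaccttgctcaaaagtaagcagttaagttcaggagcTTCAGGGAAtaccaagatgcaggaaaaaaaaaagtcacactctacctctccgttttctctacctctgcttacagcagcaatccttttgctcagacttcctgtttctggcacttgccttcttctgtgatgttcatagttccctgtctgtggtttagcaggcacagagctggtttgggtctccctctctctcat

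In wild-type tumors the axis was built mainly of receptor transcripts, with little cytokine transcript. Levels are compared between genes in TPM, values scaled to a common total per library and divided by gene length. The common γ chain Il2rg had the highest mean level, at 13.8 ± 2.58 TPM in wild-type and 26.2 ± 9.14 TPM in knock-out tumors (SD, n = 4). Il15ra followed with 9.13 ± 1.08 and 11.9 ± 3.24 TPM, and Il2rb with 9.24 ± 3.49 and 8.71 ± 1.02 TPM. Il15 was lower at 1.5 ± 0.578 and 4.49 ± 1.30 TPM. Il7r measured 0.990 ± 0.797 and 2.32 ± 1.07 TPM, and Il2ra 0.633 ± 0.341 and 1.15 ± 0.340 TPM. Il7 was lowest at 0.0475 ± 0.0340 and 0.118 ± 0.0492 TPM.

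The order was stable at its ends and open in its middle. Il2rg exceeded Il15ra in 8 of 8 tumors and ranked first in all but wild-type 2, where Il2rb led with 13.1 against 11.9 TPM. Il15ra exceeded Il2rb in 4 of 8 tumors, 1 wild-type and 3 knock-out, so these neighbors did not differ beyond their spread. Il15 held the fourth place and Il7 the last in every tumor. Il7r exceeded Il2ra in 5 of 8 tumors and these neighbors were not separated either.

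**Figure D1:**
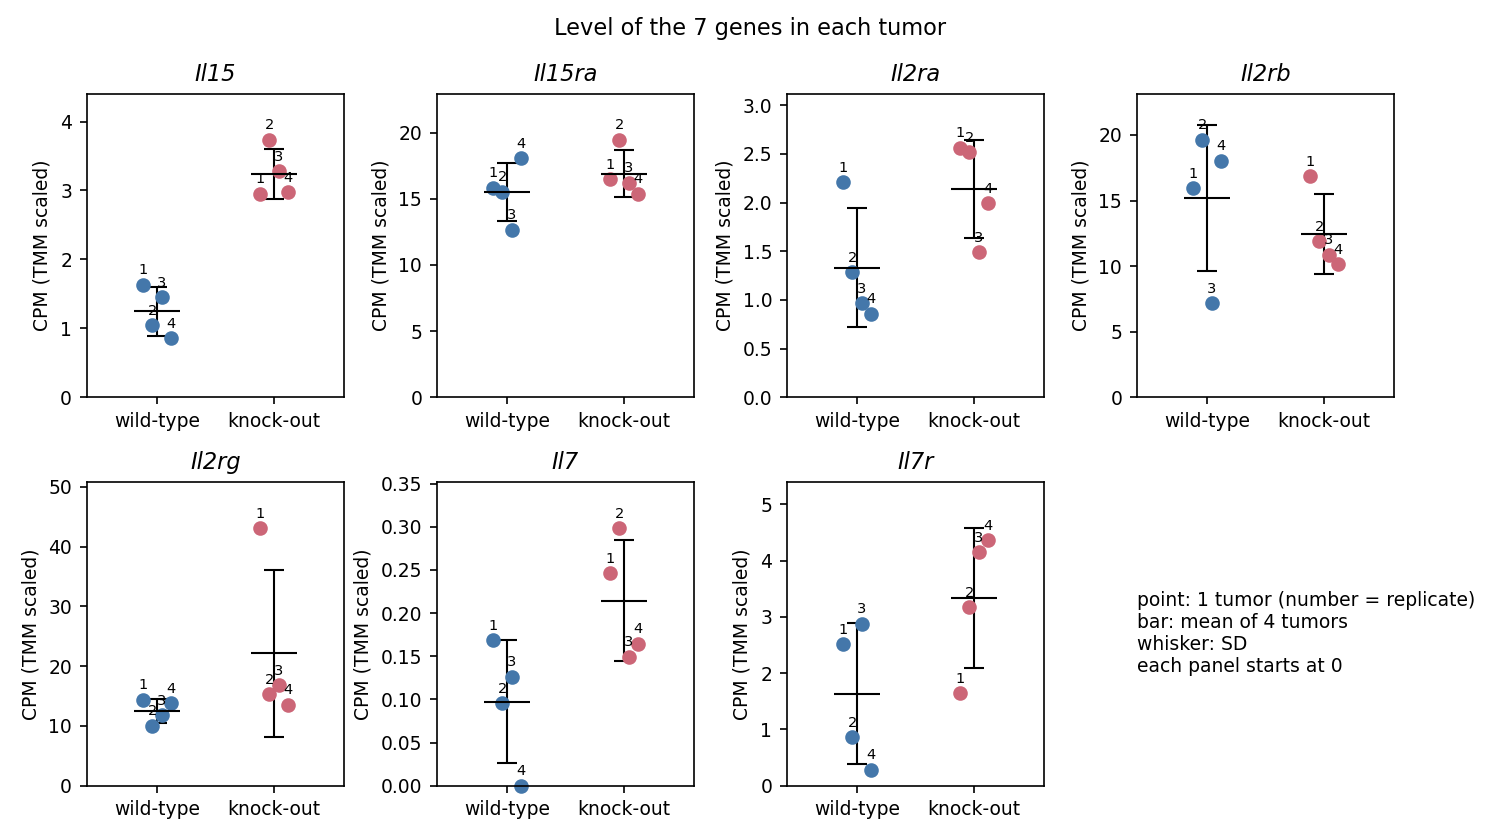
Level of each gene in each of the 8 tumors, as TMM-scaled CPM on linear axes that start at 0. Points are tumors numbered by replicate, the bar is the mean of 4 and the whisker the SD. The knock-out tumors lie above the wild-type tumors without overlap for Il15 alone, and the mean of Il2rg in knock-out tumors rests on tumor 1 at 43.1 CPM.

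Of the 6 genes that passed the filter on low counts, 1 changed between genotypes at an adjusted p under 0.05, and it was Il15, which rose. Over all 16061 genes tested, 3.49% passed in either direction and 1.36% rose. Il7 was too low to be tested. The groups did not overlap for 1 of the 6, again Il15, where 16.4% of all tested genes had groups that do not overlap, 8.06% with the knock-out tumors above. In TPM, which are scaled without TMM, Il2rg had groups that do not overlap as well, and the shares over all tested genes were 11.7% in either direction and 6.36% with the knock-out tumors above. The median log2 fold change of the 6 genes was 0.74 and that of all tested genes 0.04.

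Il15 (ENSMUSG00000031712.10, chr8:82331632-82403222, minus strand) encodes the cytokine itself. It measured 1.63, 1.05, 1.45 and 0.860 CPM in wild-type tumors 1 to 4, and 2.95, 3.74, 3.28 and 2.97 CPM in knock-out tumors 1 to 4. Every knock-out tumor was above every wild-type tumor. The mean went from 1.25 ± 0.354 to 3.24 ± 0.365 CPM (SD, n = 4), a 2.52-fold rise with a 95% interval of 1.55 to 4.09 (log2 fold change 1.33, SE 0.32, edgeR adjusted p = 0.0475). These levels rest on few reads, from 6 counts in wild-type 4 and 22 in wild-type 2 to 850 in knock-out 4. By exact Poisson intervals of 95%, which cover counting error only, the highest wild-type bound was 2.01 CPM in wild-type 1 and the lowest knock-out bound 2.49 CPM in knock-out 1. At equal depth, with each library thinned to the shallowest, the counts were 16, 5, 15 and 6 in wild-type against 18, 36, 21 and 32 in knock-out tumors. The 2 groups still did not overlap, while the log2 fold change went to 1.22 (adjusted p = 0.102).

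The Il15 call lay next to the threshold. It was lost when any 1 of 5 tumors was left out, with an edgeR adjusted p of 0.133 without wild-type 2, 0.0859 without wild-type 4, 0.154 without knock-out 2, 0.111 without knock-out 3 and 0.146 without knock-out 4. Across the 8 fits that leave out 1 tumor the log2 fold change stayed between 1.23 and 1.49. By DESeq2's Wald test it was 1.29 (adjusted p = 0.000411), and in that test 12.4% of all tested genes passed.

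Il7 (ENSMUSG00000040329.14, chr3:7569994-7613760, minus strand), the stromal cytokine that maintains naive T cells, was barely detected. It had 9, 2, 6 and 0 counts in wild-type and 12, 34, 5 and 47 counts in knock-out tumors. In CPM these were 0.169, 0.0953, 0.126 and 0 against 0.246, 0.298, 0.149 and 0.164. The groups overlapped, and the 0 of wild-type 4 allows up to 0.430 CPM, more than any measured value, so a difference was not detectable at this depth. An opposite-strand gene, Gm16685, shares 105 of its 5664 exon bases.

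The other cytokines of the common γ chain family were at or near the floor. Il9 had no count in any tumor, which over all libraries allows up to 0.00491 CPM. Il2, the growth factor of T cells, summed to 2 counts in the 4 wild-type and 14 counts in the 4 knock-out libraries, Il4 to 4 and 11, and Il21 to 2 and 5. These sums are not scaled for depth, which differed between the groups. In mean CPM, Il2 was at 0.0094 in wild-type and 0.0260 in knock-out tumors. Il4 was at 0.0332 and 0.0250 CPM, and Il21 at 0.0094 and 0.0099 CPM. None of these 4 could be tested. Il15 was thus the only one of these cytokines above 0.5 CPM in every tumor.

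Il15ra (ENSMUSG00000023206.16, chr2:11705290-11734317, plus strand), the chain that presents IL-15, had a similar level in CPM in all tumors. It measured 15.8, 15.5, 12.6 and 18.1 CPM in wild-type and 16.5, 19.5, 16.2 and 15.4 CPM in knock-out tumors. The groups overlapped, and both the lowest and the second highest value were wild-type. In TPM, knock-out 2, 3 and 4 (16.04, 11.5 and 11.8) were above the wild-type tumors (8.19 to 10.2). Knock-out 1, at 8.14 TPM, was below them. The log2 fold change was 0.13 (SE 0.20, edgeR adjusted p = 0.709), with a 95% interval from -0.32 to 0.57 that leaves out a change as large as that fitted for Il15. The sign turned to -0.17 after a correction for GC content.

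Il2ra (ENSMUSG00000026770.5, chr2:11642807-11693193, plus strand) lies next to Il15ra and encodes CD25, the chain that gives IL-2 its high affinity. It measured 2.21, 1.29, 0.966 and 0.860 CPM in wild-type and 2.56, 2.52, 1.49 and 1.99 CPM in knock-out tumors. Wild-type 1 lay within the knock-out range and the other wild-type tumors below it. The log2 fold change of 0.65 did not pass (SE 0.38, edgeR adjusted p = 0.295, 95% interval -0.20 to 1.495), and it was 0.25 after the GC correction. It ran from 0.49 without wild-type 3 to 1.04 without wild-type 1 (edgeR adjusted p = 0.133). Foxp3, the factor that defines regulatory T cells and drives Il2ra in them, had a log2 fold change of -0.79 (edgeR adjusted p = 0.295), and none of the 5 regulatory T cell markers passed.

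Il7r (ENSMUSG00000003882.5, chr15:9505788-9530176, minus strand) encodes the IL-7 receptor α chain of naive and memory T cells and innate lymphoid cells. It varied most of the 7 over the tumors, with 2.51, 0.858, 2.88 and 0.287 CPM in wild-type and 1.64, 3.17, 4.15 and 4.37 CPM in knock-out tumors. The value in wild-type 4 rests on 2 counts, and knock-out 1 lay below wild-type 1 and 3. The log2 fold change was 0.94 (SE 0.56, edgeR adjusted p = 0.296, 95% interval -0.29 to 2.17), and 0.37 after the GC correction.

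Il2rb (ENSMUSG00000068227.9, chr15:78479256-78495271, minus strand), the signalling chain that IL-2 and IL-15 share, had the only fitted value below 0. It measured 15.9, 19.6, 7.16 and 18.1 CPM in wild-type and 16.9, 11.9, 10.9 and 10.1 CPM in knock-out tumors. Wild-type 3 was the lowest of all 8 tumors, and knock-out 1 was the only knock-out tumor within the range of the other 3 wild-type tumors. The log2 fold change was -0.28 (SE 0.32, edgeR adjusted p = 0.584, 95% interval -0.99 to 0.42). It ran from -0.52 without wild-type 3 to -0.13 without wild-type 2, with -0.48 without knock-out 1 and -0.18 without knock-out 4. It was -0.095 after the GC correction and -0.01 when log2(TPM + 1) was fitted in place of counts. When wild-type 3 and knock-out 1 were both left out, a choice made after their marker levels were seen, Il2rb fell by 0.73 on the log2 scale with an adjusted p of 0.0407. In that fit 25.1% of all tested genes passed.

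Il2rg (ENSMUSG00000031304.18, chrX:101264378-101268255, minus strand) encodes the common γ chain. It measured 14.4, 10.01, 11.8 and 13.8 CPM in wild-type and 43.1, 15.3, 16.8 and 13.5 CPM in knock-out tumors. Knock-out 1 was far above all others, and knock-out 4 lay within the wild-type range. In TPM, however, all knock-out tumors were above all wild-type tumors, the lowest at 19.3 TPM in knock-out 4 and the highest wild-type value at 17.2 TPM in wild-type 1. The log2 fold change of 0.83 (SE 0.37, edgeR adjusted p = 0.178, 95% interval 0.02 to 1.63) became 0.28 (adjusted p = 0.349) without knock-out 1. Gm20489, on the same strand, shares 30.5% of the exon bases of Il2rg and is listed at 0 counts in every tumor, so the split of shared reads between them is uncertain.

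**Figure D2:**
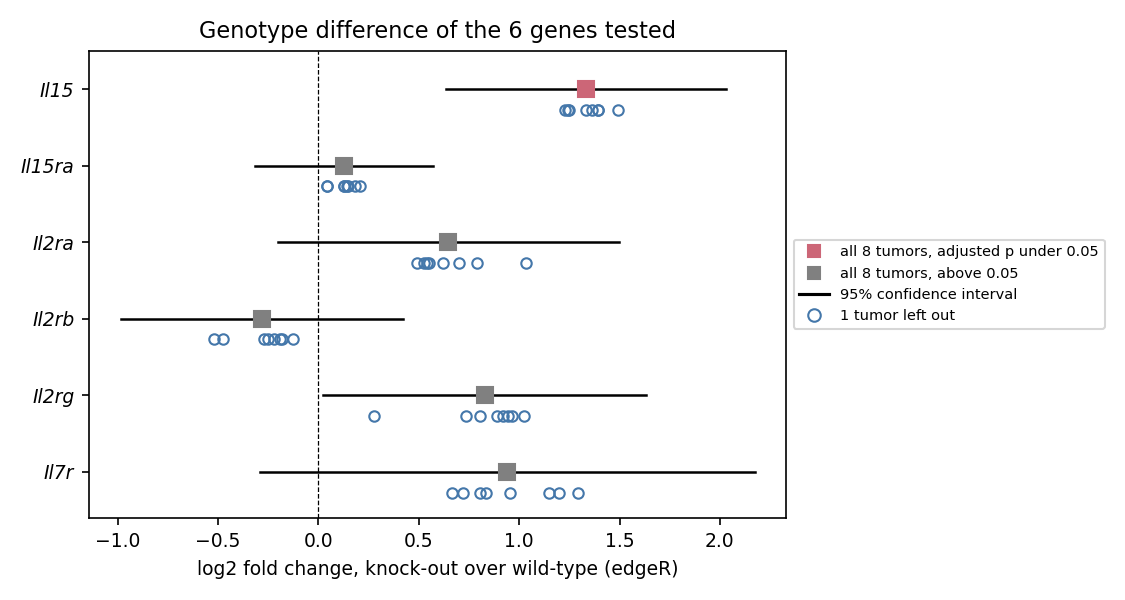
Log2 fold change between knock-out and wild-type tumors for the 6 genes tested, from edgeR. Squares are the fit to all 8 tumors (red for an adjusted p under 0.05), lines the 95% interval, and open circles the 8 fits that leave out 1 tumor. The circles of Il15 stay between 1.23 and 1.49, and 1 circle of Il2rg, without knock-out 1, drops to 0.28.

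Ligand and presenting chain were next compared within each tumor. The ratio of Il15 to Il15ra in TPM was 0.203, 0.133, 0.226 and 0.0940 in wild-type tumors 1 to 4. In knock-out tumors 1 to 4 it was 0.353, 0.377, 0.399 and 0.379. The knock-out tumors were all higher and lay close together, with an SD of 0.07 on the log2 scale against 0.58 in wild-type tumors. Wild-type Il15 rests on 6 to 87 counts and knock-out Il15 on 110 to 850. Counting error is therefore larger in the wild-type ratios, and its part in the difference of spread was not tested. Il15 alone already separated the groups in TPM (2.87 or more in knock-out, 2.06 or less in wild-type tumors). The ratio is therefore not independent of the Il15 difference. The mean log2 ratio differed by 1.29 (exact two-sided permutation test, p = 0.0286, the smallest that 70 assignments of 4 and 4 tumors can give). Without knock-out 3 the p was 0.0571 and the difference 1.26. Even in knock-out tumors, Il15ra transcript thus exceeded Il15 transcript per length.

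The ratio of the signalling chains, Il2rb to Il2rg in TPM, was 0.617, 1.09, 0.338 and 0.731 in wild-type tumors 1 to 4. It was 0.218, 0.433, 0.360 and 0.417 in knock-out tumors 1 to 4. Wild-type 3 lay within the knock-out range. The mean log2 ratio was 0.89 lower in knock-out tumors, which did not pass (difference -0.89, exact permutation p = 0.114). Without wild-type 3 the difference was -1.19 (exact permutation p = 0.0286).

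**Figure D3:**
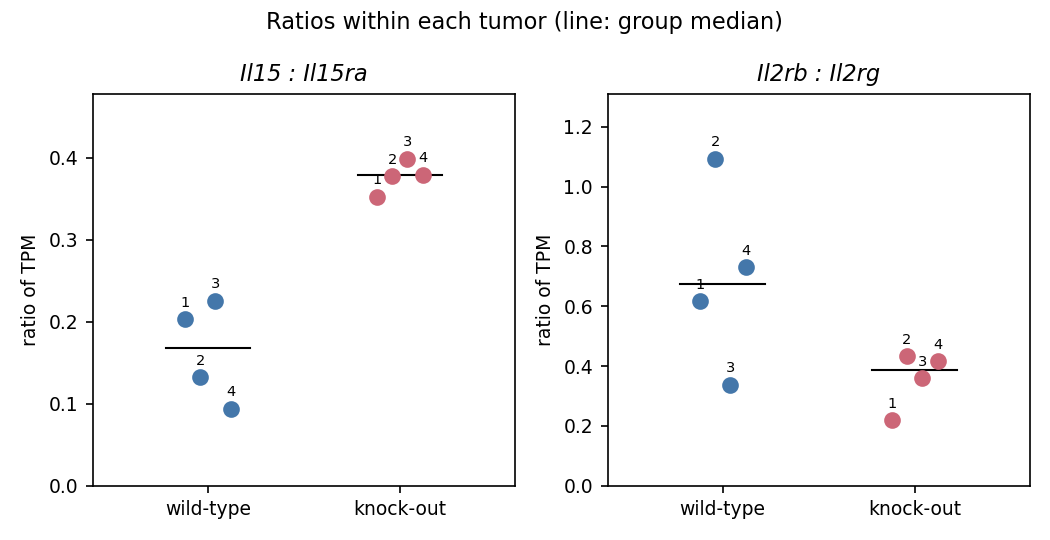
Ratio of TPM values within each tumor for Il15 to Il15ra (left) and Il2rb to Il2rg (right), on linear axes from 0. Points are tumors numbered by replicate and lines are group medians. The Il15 ratio separates the groups, at 0.353 or more in knock-out and 0.226 or less in wild-type tumors, and the Il2rb ratio does not.

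In a bulk tumor, more cells of a type and more RNA per cell cannot be told apart, so the levels were set beside markers of the cells that use them. Ptprc, which encodes the leukocyte antigen CD45, measured 33.04, 23.1, 25.8 and 13.9 CPM in wild-type and 35.5, 83.6, 40.9 and 49.6 CPM in knock-out tumors. In CPM its knock-out values were above all wild-type values, as in 8.06% of all tested genes. Its log2 fold change was 1.12 (edgeR adjusted p = 0.0785). In TPM the groups overlapped, with knock-out 1 (4.25 TPM) below wild-type 1 (5.15 TPM). Relative to Ptprc, Il15 differed by 0.28 between genotypes on the log2 scale (exact permutation p = 0.314), with overlapping groups. That difference was 0.10 at equal depth, and ran from 0.16 without knock-out 1 to 0.46 without knock-out 2 (exact permutation p = 0.0857). Il15ra relative to Ptprc was lower in all knock-out tumors than in any wild-type tumor (difference -0.99 on the log2 scale, exact permutation p = 0.0286). Leaving out wild-type 2 or wild-type 4 raised that p to 0.0571, as did leaving out knock-out 1, and it was 0.114 without knock-out 2 or knock-out 4 and 0.0857 without knock-out 3. Without wild-type 4 the difference was -0.67. For Il2rb relative to Ptprc the difference was -1.33 (exact permutation p = 0.0571), and for Il2rg -0.45 (p = 0.543 by the same exact test), or -0.98 (p = 0.0286) without knock-out 1. Il2ra, Il7 and Il7r differed by -0.37, 0.07 and 0.28, with exact permutation p of 0.371, 0.943 and 0.657.

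The choice of leukocyte transcript mattered to these values, because the 5 pan-leukocyte markers did not move together. Beside Ptprc, Cd53 had a log2 fold change of 1.07, Coro1a of -0.87, Laptm5 of -0.05 and Cd52 of 0.51, and none of them passed. The part of leukocyte number in the levels of Il15 and its receptors was not tested.

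T cell and NK cell transcripts were scarce. The 10 T cell markers summed to 20.1, 15.2, 7.96 and 19.5 CPM in wild-type and 40.6, 8.50, 12.1 and 8.81 CPM in knock-out tumors, so that knock-out 1 alone was above the wild-type range. The 10 NK cell markers summed to 24.3, 13.2, 13.6 and 14.9 CPM in wild-type and 42.7, 21.9, 21.5 and 20.01 CPM in knock-out tumors, again with knock-out 1 highest. No marker of either list passed the test. Of the NK cell markers, 9 of 10 had a fitted value above 0, with a list median of 0.76, and Ncr1, Klrc1 and Prf1 had knock-out values above all wild-type values, as did 8.06% of all tested genes. Ncr1, the NK cell receptor NKp46, measured 0.730, 0.381, 0.546 and 0.287 CPM in wild-type and 0.964, 1.13, 0.925 and 0.847 CPM in knock-out tumors (log2 fold change 0.90, edgeR adjusted p = 0.165). The T cell list had a median of 0.14.

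The high Il2rg of knock-out 1 stood in the tumor with the most T cell and NK cell transcript. Genes outside those lists peaked there too. Snrpg was at 147 CPM, against 30.3 to 62.2 CPM in the other tumors. The macrophage marker C1qa was at 921 CPM, against 238 to 660 CPM. The cause of these peaks was not tested. Relative to the mean log2 CPM of both marker lists, Il2rg in that tumor was at 3.80, and the other knock-out tumors were at 3.77, 3.79 and 3.69. The wild-type tumors were at 3.18, 3.39, 3.87 and 3.68. On this scale the knock-out tumors lay within an SD of 0.05, and the genotypes differed by 0.23 (exact permutation p = 0.229), by 0.35 without wild-type 3 and 0.38 at equal depth, both with p = 0.0286 in the exact test. Il2ra, Il2rb and Il7r relative to the same markers differed by 0.30, -0.65 and 0.96, with exact permutation p of 0.457, 0.2 and 0.371. In all, 13 such ratios and relative levels were tested, 2 reached the smallest p, and the values are not adjusted for their number.

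**Figure D4:**
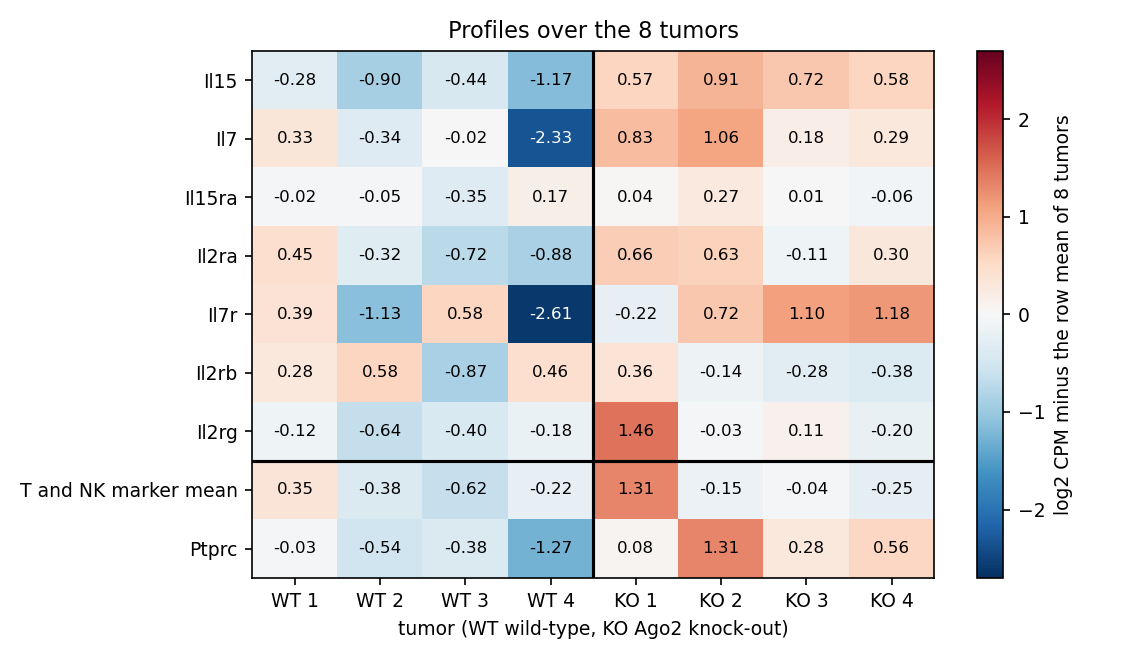
Log2 CPM of each gene in each tumor minus its mean over the 8 tumors, with the mean of the T cell and NK cell markers and Ptprc below the line. Red is above and blue below the row mean. Il2rg and the marker mean both peak in knock-out 1, at 1.46 and 1.31, while Ptprc peaks in knock-out 2.

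Markers of the cells that commonly present IL-15 gave no call. The 8 macrophage and monocyte markers summed to 913 to 1131 CPM in wild-type tumors. In knock-out tumors 1 to 4 they summed to 1461, 754, 708 and 580 CPM, so that knock-out 1 was above and the other 3 below every wild-type tumor. The 8 dendritic cell markers summed to 33.4 to 47.3 CPM in wild-type and 36.4 to 52.0 CPM in knock-out tumors. None of these 16 passed, and the median log2 fold changes were -0.18 for the macrophage and -0.32 for the dendritic cell list. Flt3, the receptor that dendritic cell precursors depend on, was at 5.49 ± 1.02 CPM in wild-type and 2.48 ± 0.631 CPM (SD, n = 4) in knock-out tumors (log2 fold change -1.15, edgeR adjusted p = 0.0594). Mertk, a macrophage receptor for dying cells, had a log2 fold change of -1.08 (edgeR adjusted p = 0.0625). Other markers of the same lists had values above 0, with Ly6c2 at 0.69, Itgax at 0.45, Zbtb46 at 0.41 and Itgam at 0.19. Of 87 cell type markers tested over 14 lists, 1 passed, the keratinocyte gene Krt10, which rose (log2 fold change 2.06, edgeR adjusted p = 0.046), against 3.49% of all tested genes. Skin keratinocyte markers summed to 10.6 to 557 CPM in wild-type and 440 to 861 CPM in knock-out tumors. Keratinocytes can make IL-15, and their part in the Il15 level was not tested.

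Around the receptors, 57 of 62 further genes in 8 lists were tested, covering other cytokines and receptors, signalling, target genes, regulators of Il15 and enzymes that cut receptor chains, and 2 of them (3.51%) passed, a share near that over all genes. Both rose, and both belong to the list of STAT5 and survival target genes, with 10 tested and a median of 0.13. Bcl2l11 encodes BIM, a protein that triggers apoptosis. It measured 49.4, 60.4, 48.3 and 41.0 CPM in wild-type and 68.6, 128, 94.3 and 103 CPM in knock-out tumors (log2 fold change 0.98, edgeR adjusted p = 0.0435). Cdkn1b encodes the cell cycle inhibitor p27. It measured 46.1, 50.7, 44.6 and 49.4 CPM in wild-type and 87.4, 108, 76.8 and 108 CPM in knock-out tumors (log2 fold change 1.00, edgeR adjusted p = 0.0192). For both genes every knock-out tumor was above every wild-type tumor in CPM, as for 8.06% of all tested genes. In TPM this held for Cdkn1b, while Bcl2l11 in knock-out 1 (18.8 TPM) was below wild-type 2 (21.4 TPM). Both are known as genes that growth and survival signals hold down rather than raise. The other 8 genes of the list act in survival and growth, and none passed. Bcl2, Bcl2l1 and Mcl1, which block apoptosis, had log2 fold changes of 0.24, -0.09 and 0.41. In CPM, Mcl1 was higher in every knock-out than in any wild-type tumor. In TPM its groups overlapped, with knock-out 1 (195.15 TPM) below wild-type 1 (195.37 TPM). The kinases Pim1 and Pim2 were at 0.14 and -0.57, and the growth genes Myc, Ccnd2 and Ccnd3 at -0.50, 0.13 and -0.40. The number of pathway genes that passed was 0 without wild-type 2, knock-out 2 or knock-out 4, 1 without wild-type 1, wild-type 4 or knock-out 3, and 6 without knock-out 1.

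Among the other lists no gene passed. The 9 kinases and STATs at the receptor had a median of -0.18. Jak3, the kinase that binds the common γ chain, had a log2 fold change of -0.79 (edgeR adjusted p = 0.138), Stat5a of -0.60 (edgeR adjusted p = 0.141) and Jak1 of 0.53 (edgeR adjusted p = 0.273). The 8 feedback genes had a median of -0.43. Cish and Socs2, feedback genes that STAT5 induces, had log2 fold changes of -0.52 and -0.50, and Socs3, the feedback gene nearest to the threshold, of -0.80 (edgeR adjusted p = 0.077). The 11 genes of the adaptors and the PI3K or MAPK arm had a median of -0.19. In CPM, Stat5a, Socs3, Akt1 and Grb2 were lower in every knock-out than in any wild-type tumor. In TPM this held for Socs3, while the groups overlapped for Stat5a, Akt1 and Grb2. Over all tested genes, 16.4% had groups that do not overlap in either direction in CPM, and 11.7% in TPM.

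The receptors of related cytokines had no call either. Il4ra, the IL-4 receptor chain, measured 220, 312, 234 and 300 CPM in wild-type and 154, 147, 159.4 and 167 CPM in knock-out tumors, without overlap (log2 fold change -0.76, edgeR adjusted p = 0.0516). Il21r and Crlf2 had log2 fold changes of -0.13 and -0.44. Il9r was too low to be tested. Tslp, whose receptor contains the IL-7 receptor α chain, was the only tested gene of its list, with a log2 fold change of 0.52 (edgeR adjusted p = 0.589).

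The 11 genes that regulate Il15 and Il15ra transcription had a median of 0.11, and none passed. Irf1, a known activator of both genes, was at a log2 fold change of 0.11 (edgeR adjusted p = 0.793). Irf9 and Stat2, partners in the interferon-stimulated factor, were at 0.76 and 0.48, and the NF-kB subunit Rela at -0.51. In CPM, Ifngr2 was higher, and Ifnar2 and Ifngr1 were lower, in every knock-out than in any wild-type tumor. Groups did not overlap in CPM for 16.4% of all tested genes. In TPM, Ifngr2 stayed apart, while the groups of Ifnar2 and Ifngr1 overlapped. The log2 fold changes of Ifngr2, Ifnar2 and Ifngr1 were 0.55, -0.28 and -0.33 (edgeR adjusted p = 0.151, 0.302 and 0.215). Among the 4 enzymes that cut receptor chains from the cell surface, Adam10 had a log2 fold change of 1.31 (edgeR adjusted p = 0.0799), with overlapping groups, and Adam17, Mmp9 and Furin had values of 0.64, -0.78 and 0.19.

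**Figure D5:**
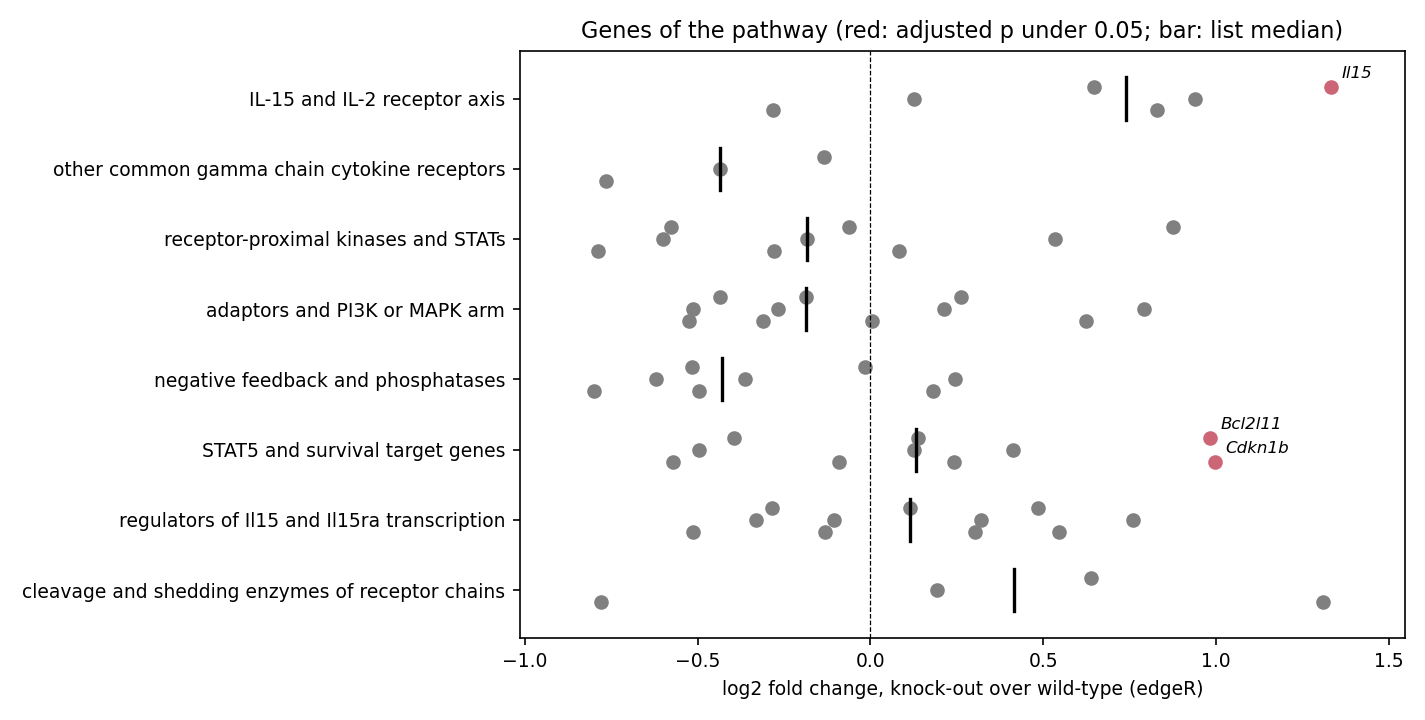
Log2 fold change between knock-out and wild-type tumors for the tested genes of the axis and of 7 pathway lists, from edgeR. Each point is a gene (red for an adjusted p under 0.05), shifted vertically only for legibility, and the bar is the list median. Il15, Bcl2l11 and Cdkn1b are red, and the feedback list has its median at -0.43.

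Profiles over the 8 tumors were compared among genes with a mean of at least 5 CPM, by the root mean square (RMS) difference of centred log2 CPM. This is a description over 8 libraries that share genotype, depth and tissue content. Closest to Il15 were Sept10, Gpr137b-ps and Rab7b, at RMS differences of 0.141, 0.144 and 0.175, where the median gene was at 0.772. Closest to Il2rg were Snrpg, Magohb and Pttg1, at 0.143, 0.156 and 0.161, which also peaked in knock-out 1. Il2rb was closest to Zmynd15, Lsr and Myo1g, at 0.110, 0.199 and 0.202. Il15ra, which varied least, was nearest to Letmd1, Btrc and Kifc1, at 0.0865, 0.105 and 0.106. Il2ra was nearest to Tor3a, Irgm2 and Prf1, at 0.235, 0.244 and 0.247. Il7 was nearest to Celf2, Slfn5 and Trim30a, at 0.271, 0.298 and 0.304, and Il7r to Gm773, Golph3l and Ube2v2, at 0.249, 0.325 and 0.360. Il7 and Il7r rest on few counts, so their profiles are the least precise.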

How the data were processed

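The authors deposited raw gene counts, whole numbers without normalization, and TPM values, which are counts divided by gene length and scaled per library. Per the labels, libraries came from a stranded mRNA kit, and the submitters' processing notes name STAR and mm10. The study's methods name featureCounts in a passage on cultured cells. For these tumor counts the annotation, strand setting and handling of multiply mapped reads are not given in the sources used here, so counts of overlapping genes are uncertain. All libraries carry batch label 1.

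Identifiers were matched to GENCODE M21 on GRCm38 (55094 of 55487 with their version). Counts were tested in R 4.3.3 with edgeR 4.0.16 (filterByExpr, TMM, quasi-likelihood test, Benjamini-Hochberg over 16061 genes, threshold 0.05, no covariate). SE was the log2 fold change divided by the square root of F. Intervals of 95% use the fit's t distribution. CPM used TMM-scaled totals, with a prior count of 2 on the log2 scale. Ratios were compared by exact two-sided permutation over tumors in Python 3.11.15. P-values cover the spread between the 4 tumors of a genotype only.

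The 7 genes, the lists and the tests were chosen with earlier results of these data known. Genes named were the 7, pathway genes past the threshold or needed for the counts, markers where groups or a library stood apart, and the 3 closest profiles per gene. The text also names pathway genes and markers that were picked after their values were seen. Alternatives were other scalings and filters, DESeq2 1.42.0, limma 3.58.1, GC and length corrections (trends fitted on genes averaging 50 counts or more), thinning, the replicate number as a block and leaving out tumors. Where TPM were tested, limma used log2(TPM + 1) or log2(TPM + 0.1), with at least 0.5 TPM in 4 libraries or no filter. The edgeR procedure was tested on simulated counts, where 190 of 194 genes changed 4-fold, a larger change than any called here in the 7 genes, were recovered among 16200 tested genes with 13 false calls. The simulation gave every gene the same dispersion and held no outlying tumor. Its recovery rate is therefore not the power of the test on these tumors.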

Additional observations from a re-analysis of the deposited data

Results flagged for a closer look

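In 46 sets of 4 values, 7 single values lay far from the other 3 of their group by Dixon's gap, where chance gives about 1 in 20. Il2rg in knock-out 1, at 43.1 CPM, lay above 13.5 to 16.8 CPM in the other knock-out tumors. The same tumor held the highest T cell marker sum, 40.6 CPM against 8.50 to 12.1 CPM, and the highest NK cell marker sum, 42.7 CPM against 20.01 to 21.9 CPM. Il7 relative to Ptprc was also highest there, at -7.01 against -8.03 to -7.87 on the log2 scale, from 12 counts. In the wild-type group, wild-type 1 had the highest NK cell marker sum, 24.3 CPM against 13.2 to 14.9 CPM. Wild-type 4, the shallowest library, had the highest Il2rg relative to Ptprc, -0.015 against -1.20 to -1.12, and the lowest Il7 relative to Ptprc, -8.82 against -7.56 to -7.40, from 0 counts.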

How the results depend on the processing

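The number of these genes that passed was 1, and it was 0 with total counts, upper quartile scaling, no count filter, a minimum of 10 counts per library (which drops Il15, Il2ra and Il7r), thinning, any limma fit on TPM, the replicate block and the replicate block with GC correction. It was 0 to 1 without single tumors and 2 without wild-type 3 and knock-out 1. The Il15 log2 fold change stayed above 0 in 23 of 23 alternatives, from 1.05 to 1.56, and passed in 9. With the replicate block it was 1.39 (adjusted p = 0.173). Replicate numbers did not pair the tumors (correlations of same-numbered tumors from -0.292 to 0.103).

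The 560 genes called overall became 2214 with DESeq2, 4476 with voom and quality weights, 983 with no count filter, 970 with the length correction, 70 with the replicate block, 262 with the block and GC correction, 145, 141 and 139 in the limma fits on TPM, and 3981 without wild-type 3 and knock-out 1. Without 1 tumor they ran from 88 (without knock-out 4) to 1793 (without knock-out 1), with 143, 934 and 265 without wild-type 2, 3 and 4, and between 88 and 166 without knock-out 2, 3 or 4. Filtered TPM moved the median log2 fold change of all genes from 0.04 to 0.21 and 0.28. Pathway genes called were 5 with DESeq2, where 12.4% of all tested genes passed, and 0 to 6 without 1 tumor.

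Il15ra turned to -0.17 with the GC correction and -0.14 with the block and GC correction. Relative to Ptprc, Il7 turned to -0.65 at equal depth, -0.28 without wild-type 4 and -0.17 without knock-out 1, and Il7r to -0.12 without wild-type 4. Leaving out 1 tumor, Il15 relative to Ptprc ran from 0.16 to 0.46, Il15ra from -1.15 to -0.67, Il2ra from -0.63 to -0.21, Il2rb from -1.72 to -0.98, Il2rg from -0.98 to -0.073, Il7 from -0.28 to 0.20 and Il7r from -0.12 to 0.65. Relative to T and NK markers, Il2rg ran from 0.12 to 0.35 and was 0.38 at equal depth, Il2ra ran from 0.10 to 0.57, Il2rb from -0.85 to -0.44 and Il7r from 0.32 to 1.63. The log2 ratio of Il15 to Il15ra ran from 1.05 to 1.47 and that of Il2rb to Il2rg from -1.19 to -0.63. The causes were not tested. Low counts of Il7, Il7r, Il2ra and Il15 in wild-type 4 limit what these tumors can show.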
